A study of Capra hircus with 20 samples.

Results

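The 8 genes described here encode transcription factors that set up body position during development: the T-box factors TBX15, TBX18 and TBX5 and the homeobox factors EN1, EMX2, SHOX2, SIX2 and PITX1. They were chosen by gene symbol, and the values of all annotated mRNA transcripts with a symbol were summed. All 8 were present, with 16 transcripts, among 20587 genes. RNA came from cells of 7-day-old male Jianzhou Daer goats. Intramuscular cells were isolated from the longissimus dorsi muscle and subcutaneous cells from subcutaneous fat, and both were used at passage 3. The 4 groups were intramuscular preadipocytes (IMPA) and subcutaneous preadipocytes (SPA), collected before induction on day 0, and intramuscular adipocytes (IMA) and subcutaneous adipocytes (SA), collected after 3 days of induction with oleic acid. Each group had 5 libraries, described as biological replicates. The paper names 5 goats, with both tissues taken from them, so groups may share animals. No uninduced day 3 cells were among the groups, so induction and 3 days in culture cannot be told apart. The libraries came from primary cultures with no further sorting described, so each held whatever cells had attached and grown.

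T-box and homeobox factors bind DNA through the domains that name them, and many switch on during early development in restricted regions of the body wall, limbs and head. Mesenchymal cells often keep part of this regional pattern in culture, and several of these genes are known from comparisons between fat depots. TBX15 and TBX18 are close relatives that act in skeletal, dermal and mural cell development, TBX5 marks the forelimb and heart fields and PITX1 marks the hindlimb field. EN1 marks ventral limb ectoderm and a dermal fibroblast lineage, EMX2 takes part in urogenital, forebrain and shoulder girdle development, SHOX2 in proximal limb growth and the sinus node, and SIX2 in nephron and tendon progenitors.

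The deposited value was FPKM, a fragment count scaled by transcript length and by the mapped fragments of the library, so levels of different genes can be set side by side. The number of fragments behind a value was not known. Per library, FPKM summed to between 527426 and 596669 over all tables, and 15126 to 16961 genes lay above 0. Marker genes separated the depots sharply. The summed FPKM of 11 skeletal muscle markers was 2549 to 2943 in IMPA and 8568 to 9191 in IMA, but 6.84 to 19.3 in SPA and 7.37 to 9.20 in SA. MYOD1, a myogenic master regulator, reached 40.8 to 44.9 FPKM in IMPA and 23.2 to 29.3 in IMA, was listed at 0 in all 5 SPA libraries and did not exceed 0.0362 in SA. The summed level of 11 fibroblast and preadipocyte stroma markers ran the other way, at 5698 to 8214 in IMPA and 7119 to 8054 in IMA against 14092 to 14581 in SPA and 12159 to 12655 in SA. The adipocyte list was low in sum in all 4 groups, at 10.7 to 13.5 FPKM over 9 genes. FABP4 had no values under its symbol. PPARG reached at most 1.26 and ADIPOQ at most 0.596 FPKM in any library. The even sum hid opposite depot differences. CEBPA averaged 9.23 FPKM in IMPA, 5.42 in IMA, 5.05 in SPA and 3.91 in SA. CIDEC averaged 0.333 in IMPA and 0.318 in IMA, against 4.65 in SPA and 4.35 in SA (log2 difference -2.08 and -2.03). Within that list the fatty acid transporter CD36 was higher after induction. Its mean went from 0.252 to 4.91 FPKM in intramuscular cells (log2 difference 2.24, limma adjusted p = 2.8e-10). In subcutaneous cells it went from 0.0679 to 0.934 (0.84, limma adjusted p = 2.6e-05), while CEBPA fell in both depots (-0.68 and -0.31, limma adjusted p = 4.3e-06 and 0.0079). The mean log2(FPKM + 1) of the list went from 0.718 to 0.878 and from 0.800 to 0.957. LPL averaged 0.549 FPKM in SPA and 1.34 in SA. The mature adipocyte markers PPARG and ADIPOQ were thus low in IMA and SA. Endothelial markers summed to at most 1.59 FPKM. Immune markers summed to 4.47 to 12.4 in intramuscular and 13.0 to 18.2 in subcutaneous libraries, mostly from CD14, while PTPRC did not exceed 0.0107. Pericyte and smooth muscle markers summed to 679 to 998 and 255 to 326, mostly from ACTA2 and TAGLN. Of the 7 tested genes of that list, 5 were higher in intramuscular cells before induction and 6 after it, MCAM by 2.40 and 2.60. CSPG4 ran the other way (log2 difference -1.03 and -0.22), and RGS5 did not exceed 0.0529 and MYH11 0.110. Both sums rest mostly on few genes and are not taken as a measure of the content of immune or mural cells. Epithelial cadherin CDH1 also differed, at 18.0 to 35.1 FPKM in intramuscular libraries and at most 0.0571 in subcutaneous ones. In bulk RNA, fewer cells of a type and less RNA per cell cannot be told apart. The part of these cell type differences in the results below was not tested, except where a value relative to the stroma markers is given.

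**Figure D1:**
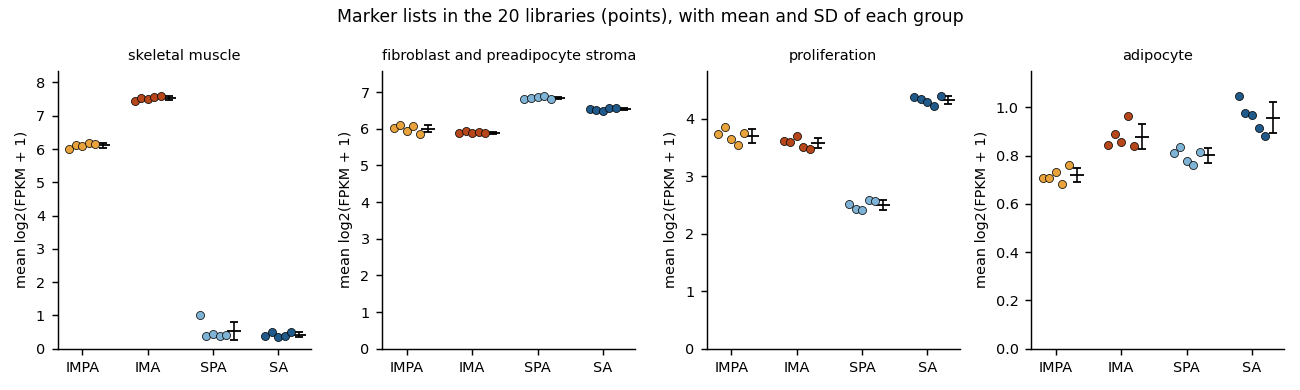
Mean log2(FPKM + 1) of the measured genes of 4 marker lists (y axis) in the 20 libraries, one point per library by group (x axis), with bars for the group mean and SD. The muscle list lies far higher in IMPA and IMA, the stroma list is highest in SPA, and the proliferation list is lowest in SPA and highest in SA.

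TBX15 was the most abundant of the 8 factors in every group and was markedly lower in the intramuscular cultures. Its 5 IMPA libraries held 12.8, 13.4, 13.2, 12.3 and 13.8 FPKM, and the IMA libraries 14.7, 15.6, 15.6, 16.3 and 17.4. SPA held 59.6, 62.0, 64.7, 66.7 and 64.1 FPKM, and SA 45.7, 42.9, 44.4, 45.9 and 43.8. No pair of groups overlapped, and the order was SPA, SA, IMA, IMPA. The group means were 13.1 ± 0.569, 15.9 ± 1.03, 63.4 ± 2.72 and 44.5 ± 1.27 FPKM in IMPA, IMA, SPA and SA (SD, n = 5 each). The SPA mean was 4.84 times the IMPA mean before induction, and the SA mean 2.80 times the IMA mean after it. On the log2(FPKM + 1) scale the depot difference, intramuscular minus subcutaneous, was -2.19 before induction (SE 0.041, limma adjusted p = 1.3e-13) and -1.43 after it (SE 0.047, limma adjusted p = 1.8e-12). From day 0 to day 3 TBX15 moved in opposite directions: it rose by 0.26 in the intramuscular cells (limma adjusted p = 0.00066) and fell by 0.50 in the subcutaneous cells (limma adjusted p = 2.0e-07).

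TBX18, the closest relative of TBX15, did not show that depot gap. Its 20 libraries all lay between 3.17 and 4.39 FPKM, with means of 3.94 ± 0.162 in IMPA, 3.72 ± 0.181 in IMA, 4.02 ± 0.220 in SPA and 3.51 ± 0.245 in SA. The depot difference on the log2(FPKM + 1) scale was -0.02 before induction (95% interval -0.12 to 0.08, limma adjusted p = 0.68) and 0.07 after it (-0.05 to 0.19, limma adjusted p = 0.28). Neighbouring groups in the order SPA, IMPA, IMA, SA overlapped, and only the ends of that order, SPA and SA, did not. In the subcutaneous cells TBX18 fell by 0.16 on the log2 scale after induction (limma adjusted p = 0.025). That call was lost without SPA replicate 1 (adjusted p = 0.059), which held the highest value, and without SA replicate 4 (adjusted p = 0.060). The level of TBX15 divided by that of TBX18 in the same library was 3.10 to 3.62 in IMPA and 3.93 to 4.91 in IMA, against 13.6 to 17.5 in SPA and 11.5 to 14.5 in SA.

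TBX5, the forelimb and heart factor, was seen at low level in the subcutaneous libraries and close to 0 in the intramuscular ones. It was listed at 0 in 3 of 5 IMPA libraries, with 0.0145 and 0.0206 FPKM in the others, and at 0 in 2 of 5 IMA libraries, with 0.0187, 0.0150 and 0.0198 in the others. SPA held 0.346, 0.582, 0.533, 0.460 and 0.339 FPKM, and SA 0.539, 0.397, 0.417, 0.455 and 0.502. Every subcutaneous library was above every intramuscular one on both days, and an exact two-sided permutation test gave p = 0.00794 each time, the smallest value that 5 against 5 libraries allow. TBX5 lay below the minimum of 1 FPKM for the fit across genes. It would pass a minimum of 0.1 FPKM only through the subcutaneous libraries, so its fit is given without any filter on low values. The depot difference of log2(FPKM + 1) was then -0.52 before induction (limma adjusted p = 5.3e-06) and -0.53 after it (limma adjusted p = 9.1e-08). That scale understates changes of such low genes. The stage values overlapped within each depot (exact permutation p = 0.68 in intramuscular and 0.86 in subcutaneous cells).

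**Figure D2:**
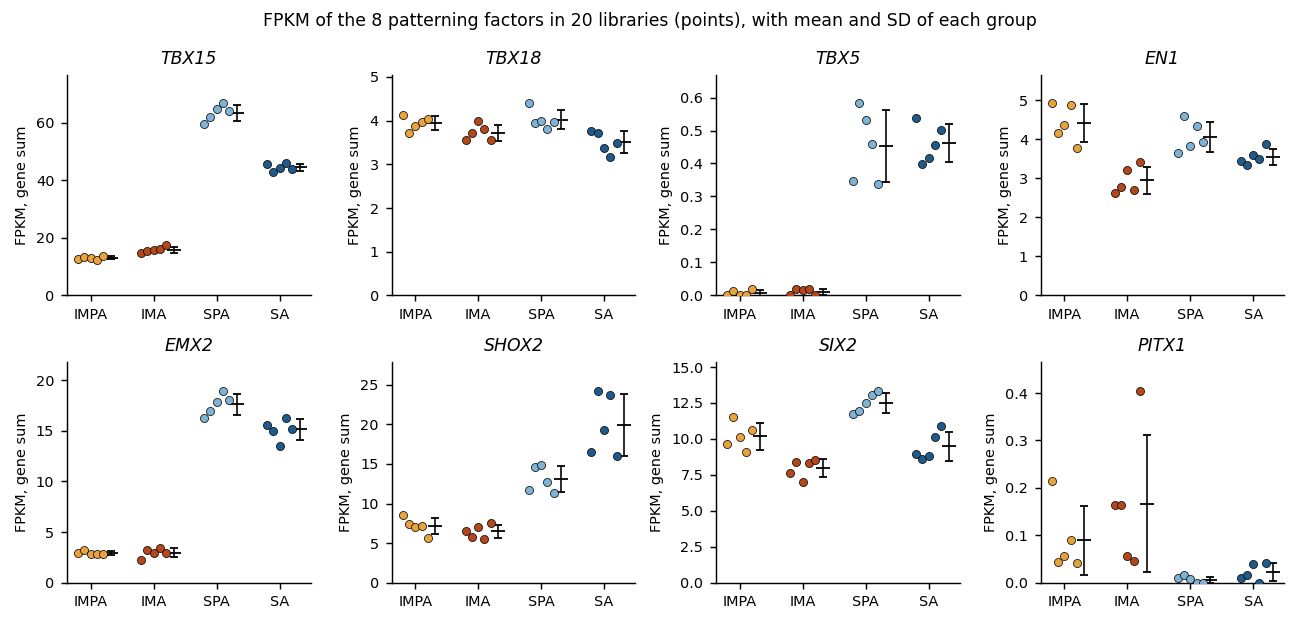
FPKM summed over transcripts (y axis, linear, from 0) of the 8 factors in the 20 libraries, one point per library by group (x axis), with bars for the group mean and SD. TBX15, EMX2, SHOX2 and TBX5 are higher in every subcutaneous library than in every intramuscular one, PITX1 is near 0 in the subcutaneous libraries, and TBX18 stays between 3.17 and 4.39 in all groups.

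EMX2 showed a depot difference about as large as that of TBX15. IMPA held 2.95, 3.23, 2.84, 2.84 and 2.82 FPKM, and IMA 2.28, 3.27, 2.91, 3.45 and 2.91. SPA held 16.2, 17.0, 17.8, 19.0 and 18.0 FPKM, and SA 15.6, 15.0, 13.5, 16.3 and 15.2. The intramuscular and subcutaneous libraries were far apart, whereas IMPA and IMA overlapped, as did SPA and SA by a small margin. The means were 2.94 ± 0.170 in IMPA, 2.97 ± 0.447 in IMA, 17.6 ± 1.04 in SPA and 15.1 ± 1.02 in SA, so that SPA was 6.0 times IMPA and SA 5.10 times IMA. The log2 difference was -2.24 before induction (SE 0.049, limma adjusted p = 5.5e-13) and -2.03 after it (SE 0.078, limma adjusted p = 1.1e-11). EMX2 fell by 0.21 in subcutaneous cells after induction (limma adjusted p = 0.0065). In intramuscular cells the stage difference was 0.0048, with a 95% interval of -0.16 to 0.17.

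SHOX2 was also lower in the intramuscular cultures, and unlike TBX15 and EMX2 its gap was larger after induction. IMPA held 8.52, 7.44, 7.0, 7.15 and 5.71 FPKM, and IMA 6.47, 5.71, 7.09, 5.54 and 7.57. SPA held 11.7, 14.7, 14.9, 12.7 and 11.4 FPKM, and SA 16.5, 24.2, 19.3, 23.6 and 16.0. All SA libraries exceeded all SPA libraries, which in turn exceeded all intramuscular ones, and the SA libraries spread widely. The means were 7.16 ± 1.01, 6.48 ± 0.869, 13.1 ± 1.63 and 19.9 ± 3.88 FPKM in IMPA, IMA, SPA and SA. The log2 difference was -0.79 before induction (SE 0.095, limma adjusted p = 8.2e-06) and -1.47 after it (SE 0.12, limma adjusted p = 3.8e-08). SHOX2 rose by 0.56 in subcutaneous cells (limma adjusted p = 0.0019), while its intramuscular stage difference of -0.13 did not pass the test (95% interval -0.34 to 0.087, limma adjusted p = 0.28).

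SIX2 differed less between depots and was lower after induction in both. Its means were 10.2 ± 0.923 in IMPA, 7.98 ± 0.636 in IMA, 12.5 ± 0.682 in SPA and 9.48 ± 0.993 in SA. The libraries ran from 9.08 to 11.5 FPKM in IMPA, 7.03 to 8.51 in IMA, 11.8 to 13.4 in SPA and 8.60 to 10.9 in SA. IMPA and SA overlapped, and the other neighbours in the order SPA, IMPA, SA, IMA did not. The intramuscular minus subcutaneous log2 difference was -0.28 before induction (limma adjusted p = 0.00097) and -0.22 after it (limma adjusted p = 0.012). The stage change was a fall of 0.32 in intramuscular cells (limma adjusted p = 0.0015) and of 0.37 in subcutaneous cells (limma adjusted p = 0.00045).

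EN1 did not separate the depots before induction. Its means were 4.42 ± 0.482 in IMPA, 2.95 ± 0.343 in IMA, 4.07 ± 0.386 in SPA and 3.55 ± 0.205 in SA. The libraries ran from 3.79 to 4.92 FPKM in IMPA, 2.63 to 3.41 in IMA, 3.65 to 4.59 in SPA and 3.33 to 3.87 in SA, and neighbouring groups in the order IMPA, SPA, SA, IMA overlapped. The depot difference was 0.10 before induction (95% interval -0.059 to 0.25, limma adjusted p = 0.24) and -0.21 after it (limma adjusted p = 0.012). EN1 fell by 0.46 in intramuscular cells (limma adjusted p = 0.00027), where all IMA libraries lay below all IMPA libraries. In subcutaneous cells it fell by 0.15 with a limma adjusted p of 0.046, and leaving out any of 7 of the 10 libraries ended that call (adjusted p 0.062 to 0.11): SPA replicates 2, 4 and 5 and SA replicates 1 to 4.

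PITX1, the hindlimb factor, was the only member whose intramuscular libraries all lay above the subcutaneous ones of the same day, and all its values were low. IMPA held 0.214, 0.0446, 0.0568, 0.0909 and 0.0420 FPKM, and IMA 0.163, 0.165, 0.0560, 0.0456 and 0.405. SPA was listed at 0 in 2 libraries and reached at most 0.0156, and SA was listed at 0 in 1 library and reached at most 0.0422. The depots did not overlap on either day (exact two-sided permutation p = 0.00794 both times), but the lowest IMA library was only slightly above the highest SA library. PITX1 was below 0.1 FPKM on average. Without any filter on low values its log2(FPKM + 1) difference was 0.11 before induction (limma adjusted p = 0.033) and 0.18 after it, where it did not pass the test (limma adjusted p = 0.064). Stage differences were within the spread of the libraries (exact permutation p = 0.35 in intramuscular and 0.12 in subcutaneous cells).

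**Figure D3:**
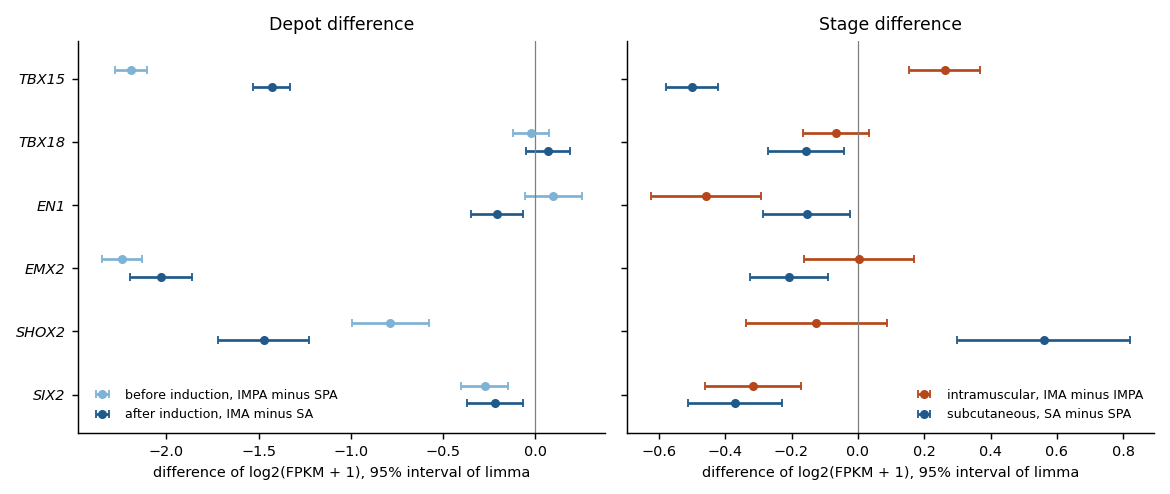
Differences of log2(FPKM + 1) with 95% intervals from limma (x axis) for the 6 factors with a mean of at least 1 FPKM (y axis), between depots on the left and between stages on the right. TBX15, EMX2 and SHOX2 lie far below 0 in both depot comparisons, TBX15 moves to opposite sides of 0 in the stage comparisons, and SHOX2 rises in subcutaneous cells.

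Counted over the fit, 4 of the 6 tested factors differed between depots before induction (TBX15, EMX2, SHOX2 and SIX2), where 75.1% of the 11432 genes tested did. After induction EN1 joined them, giving 5 of 6 against 72.4% of all genes. All of these were lower in intramuscular cells, a direction held by 32.9% of all genes before and 43.4% after induction. The split over all genes before induction depended on the scaling, with 4831 higher and 3757 lower in intramuscular cells, but 4046 and 4665 with quantile normalization. Calls were so frequent in these cultures that the count says little about the factors. Sizes and ranks follow as description only. The factors were chosen with earlier results of these data known, so standing out from all genes is not a test. TBX15 and EMX2 before induction, and TBX15, EMX2 and SHOX2 after it, lay at or below -1 on the log2 scale, as did 5.74% and 5.15% of all genes. Ordered from the most negative difference, EMX2 was 119th and TBX15 134th of 11432 before induction, and EMX2 was 106th, SHOX2 248th and TBX15 268th after it. The median difference of the 6 factors was -0.53 before and -0.83 after induction, against 0.055 and -0.091 over all genes. Without overlap between the depots were 6 of all 8 factors on each day, against 44.3% and 40.6% of the 20024 genes above 0 in some library. That base includes the genes averaging below 1 FPKM, where only TBX5 and PITX1 of the factors lay, so it is not matched for level.

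Most stroma markers were also lower in intramuscular cultures, so each tested factor was set against them within the same library, a comparison added after the data were seen. The mean log2(FPKM + 1) of the 9 tested stroma markers differed by -1.02 between depots before induction and by -0.77 after it. This reference was mixed. Before induction 6 of the 9 were lower in intramuscular cells, DPP4 was higher (1.72), and COL1A1 (-0.17) and COL3A1 (0.026) did not pass the test. After induction 7 were lower and DPP4 higher (1.18). DCN differed by -3.05 before and -2.95 after induction, and PDGFRA by -1.95 and -1.61. The gap of DCN exceeded those of TBX15 and EMX2 on both days, and that of PDGFRA exceeded that of TBX15 after induction. Values relative to the mean thus depend on the markers averaged. Relative to that mean, TBX15 was lower in intramuscular cells, by -1.17 before and -0.66 after induction, and EMX2 by -1.22 and -1.26 (exact permutation p = 0.00794 for all 4). SHOX2 changed sign before induction to 0.23 (exact permutation p = 0.063) but stayed lower after it at -0.71 (exact permutation p = 0.00794). SIX2 was at 0.75 and 0.55, TBX18 at 1.00 and 0.84, and EN1 at 1.12 and 0.56, all higher in intramuscular cells (exact permutation p = 0.00794 each). The sign thus changed with this reference for SIX2 on both days, for SHOX2 and TBX18 before induction and for EN1 after it.

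Between stages, 3 of the 6 tested factors changed in intramuscular cells, where 60.1% of all genes did. TBX15 was the one that rose and EN1 and SIX2 fell, where 19.9% of all genes rose and 40.2% fell. In subcutaneous cells all 6 changed, against 52.1% of all genes, and SHOX2 was the one that rose, where 26.1% of all genes rose and 26% fell. With single libraries left out that count was 4 to 6, since the calls of EN1 and TBX18 were not stable. None of these stage changes reached 1 on the log2 scale, as 2.29% of all genes did in intramuscular and 3.11% in subcutaneous cells. The stage change differed between depots for TBX15, EN1 and SHOX2, that is 3 of 6, against 55.3% of all genes. With upper-quartile scaling or quantile normalization it was 5 of 6, with EMX2 and TBX18 added. The interaction, the intramuscular stage change minus the subcutaneous one, was 0.76 for TBX15 (SE 0.060, limma adjusted p = 8.2e-10), -0.69 for SHOX2 (SE 0.16, limma adjusted p = 0.0012) and -0.30 for EN1 (SE 0.097, limma adjusted p = 0.012). It was 0.21 for EMX2 (limma adjusted p = 0.064), 0.091 for TBX18 and 0.054 for SIX2, which did not pass the test. The split of calls over all genes moved with the scaling: in intramuscular cells 2276 genes rose and 4591 fell, but 3008 and 3457 with upper-quartile scaling, and for the interaction 2368 were positive and 3951 negative, but 3069 and 3078 with upper-quartile scaling and 3027 and 3221 with quantile normalization. The called stage directions of the factors stayed the same under both scalings. Other genes moved with stage too. All 8 proliferation markers rose in subcutaneous cells, their sum going from 40.6 to 48.4 FPKM in SPA to 188 to 210 in SA, and 9 of 11 muscle markers rose in intramuscular cells. The part of either in the stage changes of the factors was not tested.

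For TBX15 and SHOX2 the share of each transcript in the gene sum was similar in size in both depots. Of the transcripts of TBX15, XM_005677795.3 made up 94.6% to 99.0% of the gene sum in every library. SHOX2 was split between XM_018048461.1, with mean shares of 57.1% to 62.4% in the 4 groups, and XM_018048454.1, with 36.5% to 42.0%, and a minor transcript made up about 1% of the sum. Of 20 tests of transcript shares of TBX15 and SHOX2 between groups, none passed after Benjamini-Hochberg adjustment. The exact p cannot fall below 0.00794 here, so a lone difference could not pass, and no conclusion is drawn from that. The shares of the TBX15 transcripts also mirror each other and give the same p. The lowest adjusted p was 0.079, for the 97.1% against 98.2% of the main TBX15 transcript in IMA and SA (exact permutation p = 0.00794). Those shares did not overlap between the libraries of IMA and SA. EMX2 was measured through XM_005698620.3 alone, since its other transcript was listed at 0 in all 20 libraries. TBX5 in subcutaneous cells was spread over XM_018061186.1, XM_018061188.1 and XM_018061189.1, with shares that varied widely between libraries at these low levels, and XM_018061189.1 was listed at 0 in all intramuscular libraries. For PITX1, XM_018050358.1 reached 0.405 FPKM and was above 0 in 5 of the 10 intramuscular libraries but at 0 in all subcutaneous ones. Subcutaneous values came from XM_018050359.1, which was seen in intramuscular libraries too. Its means were 0.0309 FPKM in IMPA, 0.0220 in IMA, 0.00636 in SPA and 0.0217 in SA. Neither transcript alone separated the depots on either day, so the gap without overlap held only for their sum.

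**Figure D4:**
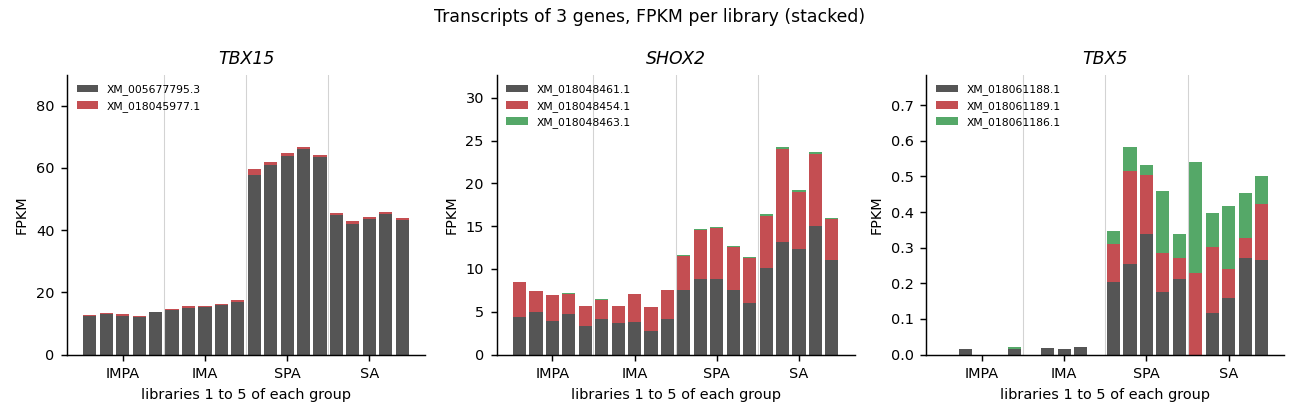
FPKM of each transcript (stacked bars, y axis, linear, from 0) of TBX15, SHOX2 and TBX5 in the 20 libraries (x axis, replicates 1 to 5 of each group). One transcript makes up nearly the whole of TBX15, the main transcripts of SHOX2 are higher in SPA and SA, and TBX5 is almost absent from IMPA and IMA.

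The levels of the factors were also set beside those of their relatives. TBX15 had the highest level of the 17 T-box genes measured in all 4 groups. Next came TBX2, a repressor, at 8.51 ± 1.62 FPKM in IMPA, 10.1 ± 0.868 in IMA, 14.6 ± 0.695 in SPA and 13.5 ± 0.326 in SA. Of the 14 T-box genes other than the members, 3 passed the minimum level. TBX2 and TBX3 were lower in intramuscular cells on both days, and MGA did not differ beyond its spread. TBX3, the repressor that lies next to TBX5, had 0.940 ± 0.184 FPKM in IMPA and 1.22 ± 0.197 in IMA against 7.78 ± 0.419 in SPA and 5.89 ± 0.275 in SA, a log2 difference of -2.18 before induction and -1.64 after it (limma adjusted p = 1.1e-11 and 2.5e-11).

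Of the relatives of the homeobox factors, SIX4, which acts in muscle and craniofacial development, was higher in intramuscular cells. It had 19.9 ± 0.785 FPKM in IMPA and 20.1 ± 0.673 in IMA against 8.65 ± 0.350 in SPA and 6.99 ± 0.456 in SA, a log2 difference of 1.11 before and 1.40 after induction (limma adjusted p = 5.7e-11 and 4.1e-12). SIX2 therefore lay below SIX4 in the intramuscular groups and above it in the subcutaneous ones, with no overlap between the libraries of the 2 genes in any group. SIX5 went the same way as SIX2, with log2 differences of -0.32 and -0.27. PITX3, known from lens and midbrain development, had 2.51 ± 0.595 FPKM in IMPA and 3.02 ± 0.605 in IMA against 0.287 ± 0.0957 in SPA and 0.384 ± 0.134 in SA, so that it exceeded PITX1 in all 4 groups. EMX1 and EN2, the relatives of EMX2 and EN1, did not exceed 0.0526 FPKM in any library.

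A wider list of limb, girdle and mesenchyme patterning genes moved both ways. Of its 25 tested genes, 9 were higher and 13 lower in intramuscular cells before induction, and the same counts held after it. The median difference over the list was -0.51 and -0.25. PRRX1, a mesenchymal homeobox gene, had 54.7 ± 2.09 FPKM in IMPA and 265 ± 7.54 in SPA (log2 difference -2.26), and 47.9 ± 2.76 in IMA and 205 ± 8.32 in SA (-2.08). TWIST2, which holds mesenchymal cells undifferentiated, differed by -2.39 and -1.63, MEIS2 by -2.16 and -1.76, MSX2 by -2.05 and -1.17, and HAND2 by -1.82 and -1.44. PAX7, the marker of muscle satellite cells, went the other way, with 12.3 ± 2.13 FPKM in IMPA and 13.3 ± 1.55 in IMA and at most 0.0443 in any subcutaneous library. Among 7 tested genes of a list of cofactors (EYA, TLE, DACH, GATA and SALL genes), 6 were higher and 1 lower in intramuscular cells before induction, and 4 were higher and none lower after it. EYA4, a transcriptional coactivator, had 13.2 ± 1.17 FPKM in IMPA and 14.4 ± 1.31 in IMA against means below 0.01 in both subcutaneous groups. TLE4, a Groucho corepressor, was higher by 1.43 and 1.61, EYA3 by 0.85 and 1.51, and GATA4 by 0.33 and 1.14.

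**Figure D5:**
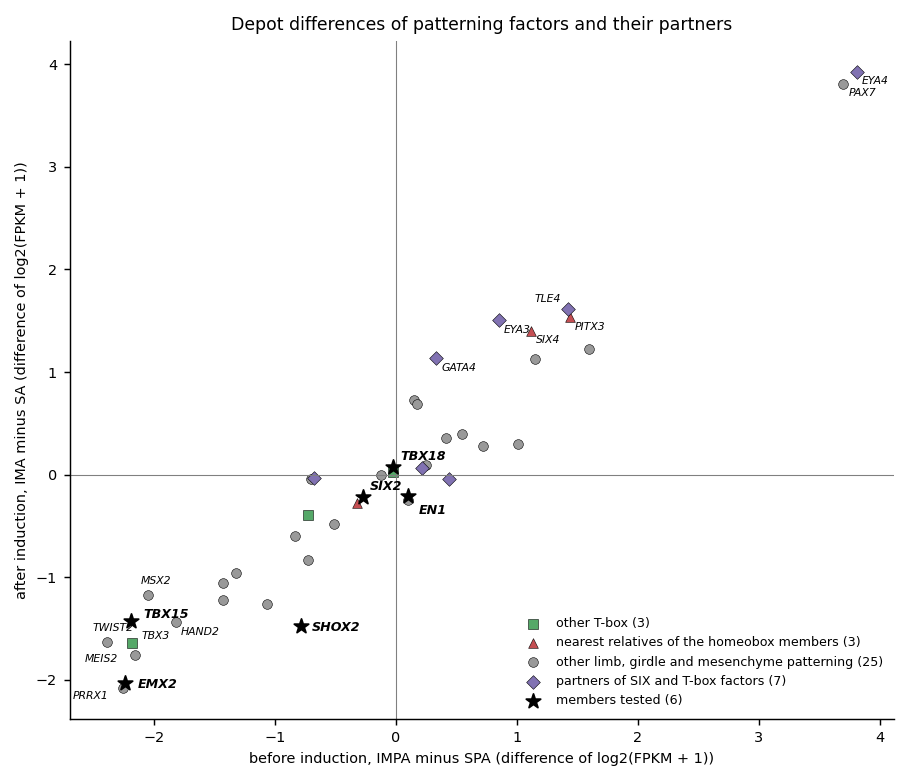
Depot differences of log2(FPKM + 1) before induction (x axis) and after induction (y axis) for the 6 tested factors (stars) and tested genes of 4 related lists (other symbols). TBX15 and EMX2 lie at the lower left near PRRX1, MEIS2 and TBX3, and PAX7 and EYA4 lie at the upper right.

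A few genes outside the set followed the same course over the 20 libraries, judged by the mean absolute difference of log2(FPKM + 1) after centring each gene on its own mean. The 3 closest to TBX15 were SCARA5, CES2 and TIPARP, at 0.089, 0.090 and 0.095, where the median gene was at 0.90. SCARA5, a ferritin receptor, averaged 1.32 FPKM in IMPA, 1.44 in IMA, 8.75 in SPA and 5.73 in SA. Among the closest to EMX2 were PRRX1 and FLRT2, at 0.090 and 0.096, where the median gene was at 1.06. SHOX2 had looser neighbours, LOC102184409, PRKG2 and FKBP11, at 0.15 each, where the median gene was at 0.57. FKBP11, a chaperone of the secretory pathway, averaged 58.3 FPKM in IMPA, 64.2 in IMA, 108 in SPA and 146 in SA. TBX18, EN1 and SIX2 varied by less than 1 on the log2 scale between group means and were not matched.

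Genes next to the factors on the chromosome, read from the RefSeq annotation, differed about as often as other genes. Of 16 such neighbours 11 were tested, and 9 differed between depots before and 8 after induction, which is near the share over all genes. WARS2, a mitochondrial tRNA synthetase gene beside TBX15, had 9.28 ± 0.263 FPKM in IMPA and 18.8 ± 1.42 in SPA, a log2 difference of -0.94. NT5E, the gene of the mesenchymal surface enzyme CD73, lies beside TBX18 and differed by -1.19 before induction, with 57.2 ± 3.22 FPKM in IMPA and 131 ± 3.05 in SPA. EN1 has a non-coding neighbour, LOC102181078, whose libraries overlapped between depots (exact permutation p = 0.59 before and 0.25 after induction). That RNA was lower in SA than in SPA, at 0.819 ± 0.129 against 1.40 ± 0.304 FPKM (exact permutation p = 0.00794).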

How the data were processed

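The authors prepared strand-specific libraries, aligned reads with HISAT2 2.0.4 to the goat genome (ARS1) and deposited FPKM per transcript from StringTie 1.3.1 and Ballgown. No counts were used, and low values were not whole multiples of a common step. The fragments behind a single value are therefore unknown, and a 0 may be a value below detection. The paper lists mapped reads, the percentage of reads mapped and GC content per library. Each was higher in every IMPA library than in any library of the other groups. Depth and these library traits thus differed with group and set IMPA apart in every comparison that includes it. Their part in the results was not tested. Transcripts were summed per symbol (6 symbols cover more than 1 gene ID, MSX2 among them). Gene IDs matched RefSeq (assembly ARS1.2) for 20559 of 20593. Builds differ, so RefSeq gave only names and neighbours. The 11432 genes averaging 1 FPKM or more were tested as log2(FPKM + 1) in limma 3.58.1 (R 4.3.3, variance trend) in fits of 10 libraries, or 20 for the interaction, and Benjamini-Hochberg adjustment over all of them. A call is an adjusted p under 0.05. Single values were compared by exact two-sided permutation over the 252 divisions of 10 libraries. The model was tested on simulated data. Groups may share animals, since the paper took both tissues from the same set of goats. Libraries of equal number were still not paired, because neither the labels nor the methods tie a number to a goat. The p-values thus treat the libraries as independent and measure the spread between these libraries.

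The members and gene lists were chosen with earlier results of these data known. Named in the text are the members, up to 6 genes per related list (absolute log2 difference of at least 1 and a call in a depot comparison, by size), first markers of each list and the 3 most alike genes per member. TBX2, MGA, SIX5, EMX1, EN2, CDH1, ADIPOQ, CD36, LPL, DPP4, the collagen genes and the chromosomal neighbours were named after their values were seen. So were DCN, CIDEC, CD14, ACTA2, TAGLN and MYH11. Alternatives changed the filter, pseudocount, scaling, variance model, fit and features, or left out libraries. A few genes that the naming rule selects are not reported here, and are left out of the plot of related genes.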

Additional observations from a re-analysis of the deposited data

Results flagged for a closer look

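In 32 groups of 5 libraries, one per factor and group, chance alone would set about 1 in 20 groups apart by the gap between the extreme library and the next, relative to the range (Dixon's criterion). TBX18 was set apart in SPA, where replicate 1 held 4.39 FPKM and the other libraries 3.81 to 3.98. PITX1 was set apart in IMPA, where replicate 1 held 0.214 FPKM and the other libraries at most 0.0909. The stage change differed between depots, by the interaction test, for TBX15 (0.76 on the log2 scale, limma adjusted p = 8.2e-10), SHOX2 (-0.69, limma adjusted p = 0.0012) and EN1 (-0.30, limma adjusted p = 0.012).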

How the results depend on the processing

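Over 684 recomputed differences of the 6 tested factors, 643 kept their direction and side of the threshold, 17 lost a call, 11 gained one and 13 changed sign. Of the lost calls, 9 with a library left out and 7 under other settings fell in the subcutaneous stage comparison. TBX15, EMX2 and SHOX2 kept their depot calls under all alternatives of scaling, filter, pseudocount, variance model and left-out library, with single libraries left out giving -2.21 to -2.17, -2.27 to -2.21 and -0.84 to -0.72 before induction. Sign changes concerned values near 0 or the stroma reference: TBX18 before induction (-0.037 to 0.0047 with single libraries left out, positive without SPA replicate 1, alone or together with SA replicate 5, and 1.00 relative to stroma markers), EN1 before induction (-0.014 with quantile normalization), SHOX2 before induction (0.23), SIX2 (0.75 and 0.55) and EN1 after induction (0.56) relative to stroma markers, and the EMX2 stage difference in intramuscular cells (-0.039 to 0.071 with single libraries left out, with -0.0042, -0.0041 and -0.0053 without IMPA replicates 3, 4 and 5 and -0.024 and -0.039 without IMA replicates 2 and 4). The cause was not tested. The interaction was called for 5 factors in place of 3 under both upper-quartile scaling and quantile normalization, which added EMX2 (0.28 and 0.26) and TBX18 (0.16 and 0.15). TBX18 before induction was called with quantile normalization (-0.14, adjusted p = 0.018). EN1 after induction lost its call with transcripts in place of gene sums (adjusted p = 0.0503), where more features were tested. With single libraries left out, 4 factors were called before induction, 5 after it, 3 for the intramuscular stage, 4 to 6 for the subcutaneous stage and 3 to 4 for the interaction, and the genes called ranged from 8334 to 8536, 7964 to 8187, 6362 to 6878, 5441 to 5872 and 6054 to 6381.

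Libraries with the same number did not deviate together in the depot comparisons or the subcutaneous stage comparison. Over 0.1 was the correlation of their deviations in 0, 0, 2 and 1 of 5 pairs in the depot and stage comparisons. In the intramuscular stage comparison all 5 correlations were weakly positive (0.042 to 0.12), and 3 of 5 IMA libraries correlated best with the IMPA library of their own number. With the replicate number as a block, 8530 and 8059 genes differed between depots, 6826 and 5602 between stages and 6304 in the interaction, and 1 call among the factors was lost, that of EN1 in subcutaneous cells (adjusted p = 0.088). Depth limits TBX5 and PITX1 most, since values this low may rest on few fragments.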
